A study of Mus musculus with 8 samples.

Results

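The 10 genes examined were members of the transforming growth factor β (TGF-β) pathway, namely the ligands *Tgfb1*, *Tgfb2* and *Tgfb3*, the latency-related protein *Ltbp2*, the receptors *Tgfbr1* and *Tgfbr2*, the corepressors *Ski*, *Skil* and *Tgif1*, and the feedback inhibitor *Pmepa1*. Every array probe annotated with the symbol of a member was taken, and none was chosen by its signal. The 10 member genes are 10 of the 37074 names on the array and had 20 of its 56605 probes, and 17 of the 20 were bright enough to be tested. The Pg group comprised 4 male C57BL/6J mice, 12 weeks old, sampled 18 h after a single intravenous injection of sonicated *Porphyromonas gingivalis* in 100 μL of saline, at a dose that the labels print as 108 CFU, where the final 8 is an exponent in the study's methods. The Co group comprised 4 mice of the same strain, sex and age that received saline alone. RNA of tissue labelled brown adipose tissue (BAT), 200 ng per mouse, was hybridized on 1 single-color array per mouse, and the arrays are called Co1 to Co4 and Pg1 to Pg4.

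TGF-β is secreted as a latent dimer, bound by its own propeptide and by a binding protein that anchors it in the extracellular matrix, and it signals only after release. The free ligand brings a type II and a type I receptor kinase together, and the type I receptor phosphorylates SMAD2 and SMAD3, which enter the nucleus with SMAD4. There the corepressors SKI, SKIL (also called SnoN) and TGIF1 bind the SMADs and hold their target genes down, and PMEPA1, itself induced by the pathway, keeps SMADs away from the receptor. In adipose tissue the pathway is known for restraining adipocyte differentiation and the thermogenic programme and for promoting fibrosis.

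Each probe is a single strand of 60 bases. The probes on which the results turn follow, 5′ to 3′, because several genes had probes at separate places that gave different values. The tested *Skil* probes are annotated to different transcripts of the gene, as are the tested *Tgif1* probes, whereas the *Tgfb1* probes share a transcript. Whether a probe reads only its annotated transcript was not analysed. Capitals in the *Tgfb1* and *Tgfb2* lines mark bases that the pair of probes shares in an alignment of 41 bases without gaps, in which 28 bases, or 68.3%, were identical. This was the closest match between probes of different member genes, and the next pair shared 27 of 60 bases. Cross-hybridization was not tested. Capitals in the *Ltbp2* line mark an AATAAA polyadenylation hexamer near the 3′ end.
Tgfb1 A_51_P390715: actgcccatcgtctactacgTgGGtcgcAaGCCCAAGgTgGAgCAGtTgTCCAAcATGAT
Tgfb1 A_66_P135688: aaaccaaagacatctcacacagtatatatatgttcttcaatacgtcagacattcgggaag
Tgfb2 A_65_P10913: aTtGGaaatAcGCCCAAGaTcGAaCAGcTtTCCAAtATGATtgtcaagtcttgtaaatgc
Ltbp2 A_55_P1970105: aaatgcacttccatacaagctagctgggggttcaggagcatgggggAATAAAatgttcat
Tgfbr1 A_52_P4538: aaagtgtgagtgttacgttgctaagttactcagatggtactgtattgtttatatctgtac
Tgfbr1 A_51_P280137: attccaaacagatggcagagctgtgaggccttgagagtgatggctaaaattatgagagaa
Skil A_55_P2904840: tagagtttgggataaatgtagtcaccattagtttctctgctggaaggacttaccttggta
Skil A_55_P2934297: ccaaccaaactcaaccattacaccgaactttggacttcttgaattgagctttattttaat
Tgif1 A_55_P2092526: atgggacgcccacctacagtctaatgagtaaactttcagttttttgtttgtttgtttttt
The scanner files place probes on mouse build mm9. On that build the brighter *Tgfb1* probe lies at chr7:26489877-26489936 on the plus strand, and the dimmer one lies at chr7:26477408-26477467. The *Ltbp2* probe is at chr12:86124167-86124226 and the *Tgif1* probe at chr17:71193629-71193688, both on the minus strand. The *Skil* probe that is brighter is at chr3:31021022-31021081, and the dimmer one at chr3:30995904-30995963. The brighter *Tgfbr1* probe is at chr4:47427421-47427480, whereas A_51_P280137 has its 60 bases placed within chr4:47419898-47423556, a span longer than the probe. Exon positions on this build were not analysed here.

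The tissue label was checked against marker genes. *Ucp1*, the uncoupling protein that defines brown adipocytes, was well above background on 0 of the 8 arrays, as were *Elovl3*, *Slc27a2* and *Bmp8b*. The other 6 of 10 brown adipocyte markers, all 8 adipocyte markers and all 10 skeletal muscle markers, among them *Ckm* and *Acta1*, were well above background on all 8 arrays. The log2 level of the summed signal of the muscle markers was 21.29 to 21.39 in Co and 21.26 to 21.35 in Pg mice. Adipocyte markers gave 16.44 to 16.67 and 16.42 to 16.82, and brown adipocyte markers 18.84 to 18.99 and 18.97 to 19.10, with *Cox8b* and *Cox7a1* the brightest. The part of muscle RNA in the member values was not tested. In such bulk RNA, fewer cells of a type and less RNA per cell cannot be told apart. The Co arrays had 34761 to 35831 probes well above background, the Pg arrays 31135 to 34066. The Co arrays all lay in row 1 of the slide and the Pg arrays in row 2, so slide row and injection cannot be told apart.

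Levels are given as quantile-normalized log2 signal, and differences as Pg minus Co on the log2 scale with the standard error (SE). A probe was called at a Benjamini-Hochberg adjusted p (limma, over all tested probes) below 0.1. Of the 17 tested member probes, 10 were higher and 7 lower in Pg mice, and 2 were called, both higher, namely 1 of *Ltbp2* and 1 of *Tgif1*. Over all 33820 tested probes 7.82% were called, 1.82% as higher and 6% as lower, so the share of member probes, 11.8%, rests on 2 probes and lies near the background. No member probe combined a call with a fold change above 1.5, the rule that 1.61% of all probes met. Of the member probes 5 of 17 had an unadjusted p below 0.05 against 22.8% of all probes. On the brightest probe of each gene, 7 member genes were higher and 3 lower with a median difference of 0.11, and the median over 22324 genes was -0.01. Per array, the median deviation of these member probes from their Co means was -0.12, -0.10, 0.10 and 0.08 in Co1 to Co4. It was 0.09, 0.08, -0.004 and 0.22 in Pg1 to Pg4. The groups overlapped, and the SD within groups was 0.10.

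**Figure D1:**
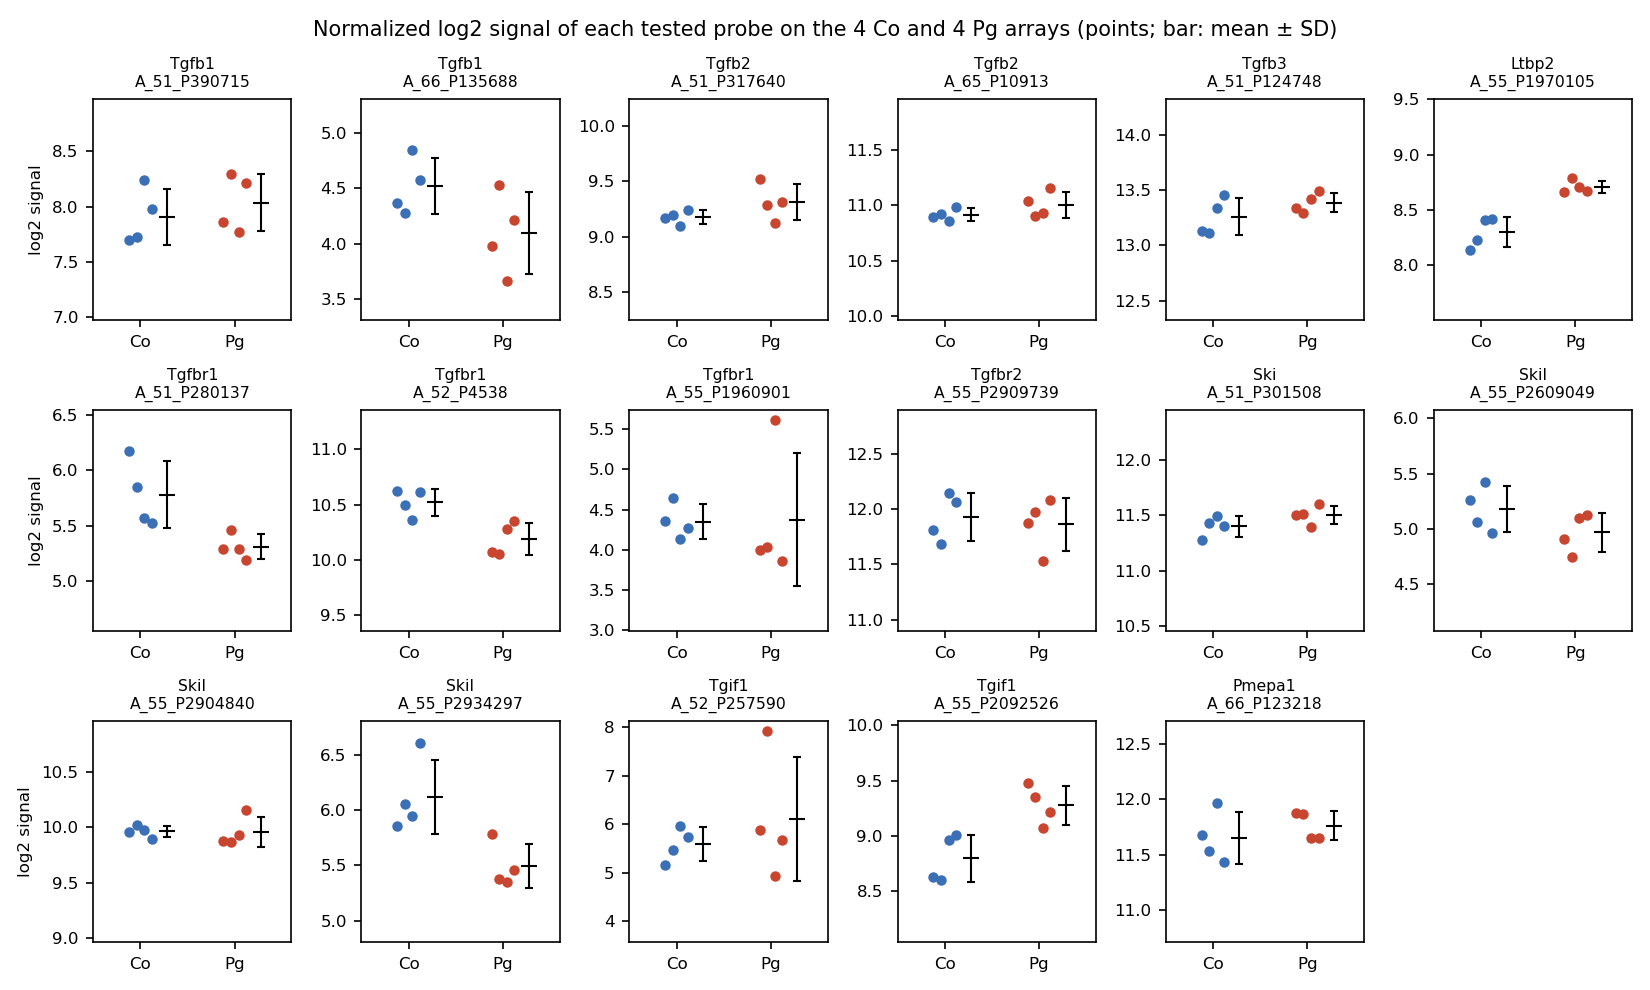
Normalized log2 signal (y axis) of the 17 tested probes on the 4 Co arrays (blue) and the 4 Pg arrays (red), with the mean ± SD of each group in black; panels share a minimum height of 2 log2 units but not an origin. Only the panels of *Ltbp2*, *Tgif1* A_55_P2092526, *Tgfbr1* A_51_P280137 and A_52_P4538, and *Skil* A_55_P2934297 show groups that do not overlap.

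None of the 5 tested ligand probes was called. *Tgfb1* encodes the most widely expressed ligand, and its brighter probe read 7.70, 7.72, 8.24 and 7.98 in Co1 to Co4 and 7.86, 8.29, 7.77 and 8.22 in Pg1 to Pg4. The groups overlapped throughout, and the difference was 0.13 ± 0.16 (SE, n = 4 per group, limma adjusted p = 0.682) with a 95% interval from -0.25 to 0.50. The second probe, A_66_P135688, gave 4.37, 4.28, 4.85 and 4.57 in the Co mice and 3.98, 4.53, 3.66 and 4.22 in the Pg mice. It was well above background on 4 Co arrays and on 1 Pg array, its groups overlapped through Pg2, and its difference was -0.42 ± 0.20 (limma adjusted p = 0.257).

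*Tgfb2*, the ligand best known from development of the heart and skeleton, was read by a pair of probes. Probe A_65_P10913 gave 10.89, 10.92, 10.86 and 10.99 in Co mice and 11.03, 10.90, 10.93 and 11.16 in Pg mice. Probe A_51_P317640 gave 9.17, 9.20, 9.09 and 9.24 in Co mice and 9.52, 9.28, 9.12 and 9.31 in Pg mice. On the first probe Pg1 and Pg4 lay above all Co mice and on the second all Pg mice but Pg3 did. The differences were 0.09 ± 0.07 and 0.13 ± 0.09 (limma adjusted p = 0.499 and 0.408). *Tgfb3*, a ligand known for its part in palate closure and in repair with little scarring, read 13.13, 13.11, 13.34 and 13.46 in Co mice and 13.34, 13.30, 13.42 and 13.49 in Pg mice. Co3 and Co4 lay among the Pg mice, and the difference was 0.13 ± 0.09 (limma adjusted p = 0.458, 95% interval from -0.09 to 0.34).

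*Ltbp2* encodes a matrix protein of the latent TGF-β binding protein family that sits on elastic microfibrils and, unlike its relatives, does not bind latent TGF-β itself. Its tested probe read 8.14, 8.23, 8.41 and 8.42 in Co mice and 8.66, 8.79, 8.71 and 8.67 in Pg mice. Every Pg mouse lay above every Co mouse, and the Pg mice spanned a narrower range. The level was upregulated by 0.41 ± 0.08 on the log2 scale, a 1.33-fold increase (limma adjusted p = 0.0555). The call was lost without Co2, Co3, Pg1 or Pg2 (adjusted p = 0.128, 0.11, 0.103 and 0.108), where the differences stayed between 0.38 and 0.44. A probe counts as detected where the scanner software marks it well above background, and the second *Ltbp2* probe, A_55_P2732081, was detected on no array and was left untested.

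The type I receptor *Tgfbr1*, the kinase that phosphorylates SMAD2 and SMAD3, read lower in Pg mice on its brightest probe. Probe A_52_P4538 gave 10.62, 10.49, 10.36 and 10.61 in Co mice and 10.08, 10.05, 10.28 and 10.35 in Pg mice. The groups did not overlap, although Pg4 came just below Co3, and the difference of -0.33 ± 0.10 missed the threshold (limma adjusted p = 0.103). Probe A_51_P280137 gave 6.18, 5.85, 5.57 and 5.53 in Co mice and 5.29, 5.46, 5.29 and 5.19 in Pg mice. These groups did not overlap either, and the difference of -0.47 ± 0.15 missed the threshold as well (limma adjusted p = 0.122). Adjusted p for A_52_P4538 passed 0.1 in 3 of 17 alternative settings, and for A_51_P280137 in 0 of 16.

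The remaining *Tgfbr1* probes measured little. Probe A_55_P1960901 gave 4.35, 4.64, 4.13 and 4.26 in Co mice and 4.00, 4.04, 5.62 and 3.85 in Pg mice. Only Pg3 of the Pg mice was well above background there, its value lay above all others, and the difference of 0.03 ± 0.38 (limma adjusted p = 0.972) turned to -0.38 without Pg3. Probe A_55_P1960906 was above background on 0 arrays. *Tgfbr2*, the type II receptor that binds the ligand first, read 11.81, 11.68, 12.15 and 12.06 in Co mice and 11.87, 11.97, 11.53 and 12.08 in Pg mice. The groups overlapped fully, Pg3 was the lowest of the 8 arrays, and the difference was -0.06 ± 0.15 (limma adjusted p = 0.83), which became 0.01 without Co3 and 0.05 without Pg3.

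Of the corepressors, *Tgif1* encodes a homeodomain protein that recruits histone deacetylases to SMADs. Its brightest probe, A_55_P2092526, read 8.63, 8.60, 8.96 and 9.004 in Co mice and 9.48, 9.35, 9.07 and 9.21 in Pg mice. All Pg mice lay above all Co mice, with Pg3 only just above Co4, and the level was upregulated by 0.48 ± 0.13 on the log2 scale, a 1.39-fold increase (limma adjusted p = 0.0916). This call held in 1 of the 8 fits that left out 1 array, the fit without Pg3 (adjusted p = 0.0852), and the other 7 gave adjusted p from 0.113 to 0.184 with differences between 0.41 and 0.55. Across 17 alternative settings the *Ltbp2* call held in 11 and the *Tgif1* call in 4. A second *Tgif1* probe, A_52_P257590, gave 5.17, 5.47, 5.97 and 5.74 in Co mice and 5.89, 7.92, 4.94 and 5.68 in Pg mice. Pg2 stood far above the other arrays while Pg3 was the lowest, and the difference of 0.52 ± 0.58 (limma adjusted p = 0.629) was -0.08 without Pg2. Its other probe, A_55_P2717877, was well above background on Pg3 alone and was not tested.

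*Skil* encodes a corepressor whose protein is degraded, and whose transcription is then induced, under TGF-β. Its brightest probe, A_55_P2904840, gave 9.96, 10.02, 9.98 and 9.90 in Co mice and 9.88, 9.87, 9.94 and 10.16 in Pg mice. The groups overlapped around a difference of 0.00 ± 0.08 (limma adjusted p = 0.985) with a 95% interval from -0.18 to 0.17. Probe A_55_P2934297 gave 5.86, 6.06, 5.95 and 6.61 in Co mice and 5.79, 5.38, 5.35 and 5.46 in Pg mice. Every Pg mouse lay below every Co mouse there, Pg1 closest to Co1, and the difference of -0.62 ± 0.18, the most negative among the tested member probes, came just short of a call (limma adjusted p = 0.100115). It was called in 5 of 17 alternative settings, the authors' values among them, and in 0 of the 8 fits without 1 array. Its other probe, A_55_P2609049, gave 5.26, 5.06, 5.43 and 4.97 in Co mice and 4.91, 4.75, 5.10 and 5.12 in Pg mice, overlapping groups with a difference of -0.21 ± 0.13 (limma adjusted p = 0.363).

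*Ski*, the founding member of that corepressor family, read 11.27, 11.43, 11.50 and 11.41 in Co mice and 11.50, 11.51, 11.40 and 11.60 in Pg mice. Only Co1 lay below all Pg mice, and the difference was 0.10 ± 0.07 (limma adjusted p = 0.432). *Pmepa1* read 11.68, 11.53, 11.97 and 11.43 in Co mice and 11.88, 11.87, 11.65 and 11.65 in Pg mice. Co3 was the highest and Co4 the lowest of the 8 arrays, so the Pg values lay within the Co range, and the difference was 0.11 ± 0.13 (limma adjusted p = 0.637, 95% interval from -0.18 to 0.40). An interval that includes 0 does not show that a level was equal in the 2 groups.

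**Figure D2:**
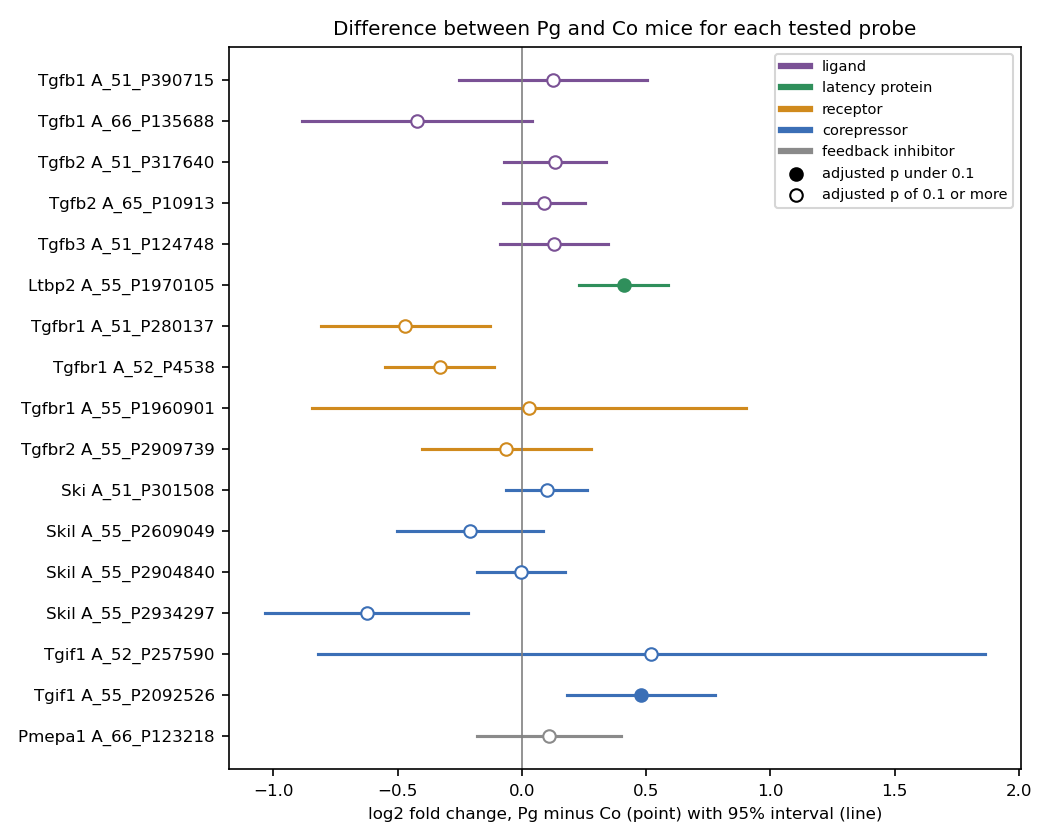
Difference in log2 signal, Pg minus Co (x axis), of the 17 tested probes, with the 95% interval of the limma fit as a line; color gives the role of the gene and a filled point an adjusted p below 0.1. The filled points of *Ltbp2* (0.41) and *Tgif1* A_55_P2092526 (0.48) lie above 0, and the intervals of *Tgfbr1* A_51_P280137 and A_52_P4538 and of *Skil* A_55_P2934297 lie below 0 without a call.

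Altogether 5 of the 17 tested member probes had groups that did not overlap, 2 with Pg above and 3 with Pg below. Among all tested probes this was so for 15.8%, for 4.83% with Pg above and for 11% with Pg below. Markers of other cell types were read beside the members. The log2 level of the summed signal of the 8 endothelial markers was 14.63 to 14.87 in Co mice and 15.05 to 15.11 in Pg mice. Of their 8 tested probes 2 were called, or 25% beside 7.82% of all probes. These were *Kdr* (0.57, limma adjusted p = 0.0573) and *Egfl7* (0.42, limma adjusted p = 0.0419), both higher. The bright *Egfl7* carries much of that sum, and on brightest probes 5 endothelial markers were higher and 3 lower with a median of 0.07. *Pecam1* gave -0.20 with every Pg mouse below every Co mouse, and *Tek* and *Tie1* gave -0.14 and -0.14, none of them called (limma adjusted p = 0.151, 0.441 and 0.51). All 8 were well above background on all 8 arrays. The 7 fibroblast markers overlapped, at 15.99 to 16.47 in Co mice and 16.04 to 16.31 in Pg mice, as did the platelet markers, at 10.74 to 11.44 and 10.41 to 11.50. The summed neutrophil markers, carried by the bright *Csf3r*, ranged from 15.29 to 15.61 in Co mice and from 15.53 to 15.75 in Pg mice. Of the neutrophil markers all 4 that were tested read higher in Pg mice with 0 calls, among them *S100a8* with 2.16 ± 0.71 and *S100a9* with 2.04 ± 0.82 (limma adjusted p = 0.132 and 0.195). The other markers of the 4, *Csf3r* and *Ly6g*, gave 0.24 and 0.09. *Cxcr2* and *Retnlg* were well above background on 0 Co arrays and on 2 Pg arrays each. Summed macrophage markers ranged from 12.96 to 13.74 and from 12.96 to 14.66. The uncalled markers were named after their values were seen. Over all 9 marker lists 3 of 83 tested probes, or 3.61%, were called beside 7.82% of all probes, and the other call was *Atp2a1*, the calcium pump of fast skeletal muscle, with a difference of -0.44 ± 0.06 (limma adjusted p = 0.0411). The part of endothelial or neutrophil RNA in the member values was not tested.

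Genes with several probes allowed the difference between their probes to be compared within each array, where array-wide shifts cancel. The 9 such pairs of tested probes were compared by exact two-sided permutation over the 70 splits of the arrays, which cannot give a p below 0.0286. For *Tgfb1* the dimmer minus the brighter probe was -3.44 to -3.33 in Co mice and -4.11 to -3.76 in Pg mice. As the dimmer probe was well above background on 4 Co arrays and on 1 Pg array, it was tested almost only through the group in which it was brighter, and these values are a description. For *Skil* probe A_55_P2934297 minus A_55_P2904840 was -4.10 to -3.29 in Co mice and -4.70 to -4.10 in Pg mice, a difference of -0.62 (exact p = 0.0571, adjusted 0.257). The other 7 pairs had exact p from 0.143 to 1. With 9 pairs, a single pair at the smallest p is adjusted to 0.257, so this permutation test could not settle whether the probes of any 1 gene differed.

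Among all tested probes, the difference moved with the level of the probe. Among the 8238 tested probes with a mean log2 signal below 6, 64.6% were lower in Pg mice, against 55.5% of the 25582 brighter ones. The median difference was -0.15 for probes below 5 and 0.01 for probes above 12. Of the 6 tested member probes with a mean below 6, 4 were lower in Pg mice. The filter bears on this count and on the shares and medians of all dim tested probes. A dim probe could be tested through the 4 Co arrays alone, as *Tgfb1* A_66_P135688 and *Tgfbr1* A_55_P1960901 nearly were with 1 Pg array each. Over all probes the median difference was -0.04 with the filter and -0.01 without it. How much of the trend with level came from the filter was not tested. The 4 lower member probes included both dim probes whose groups did not overlap, *Skil* A_55_P2934297 and *Tgfbr1* A_51_P280137, as well as *Tgfb1* A_66_P135688. *Tgfbr1* A_52_P4538, with group means of 10.52 and 10.19, lies where the median difference of all probes was -0.01. The part of signal level in the members' differences was not tested.

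**Figure D3:**
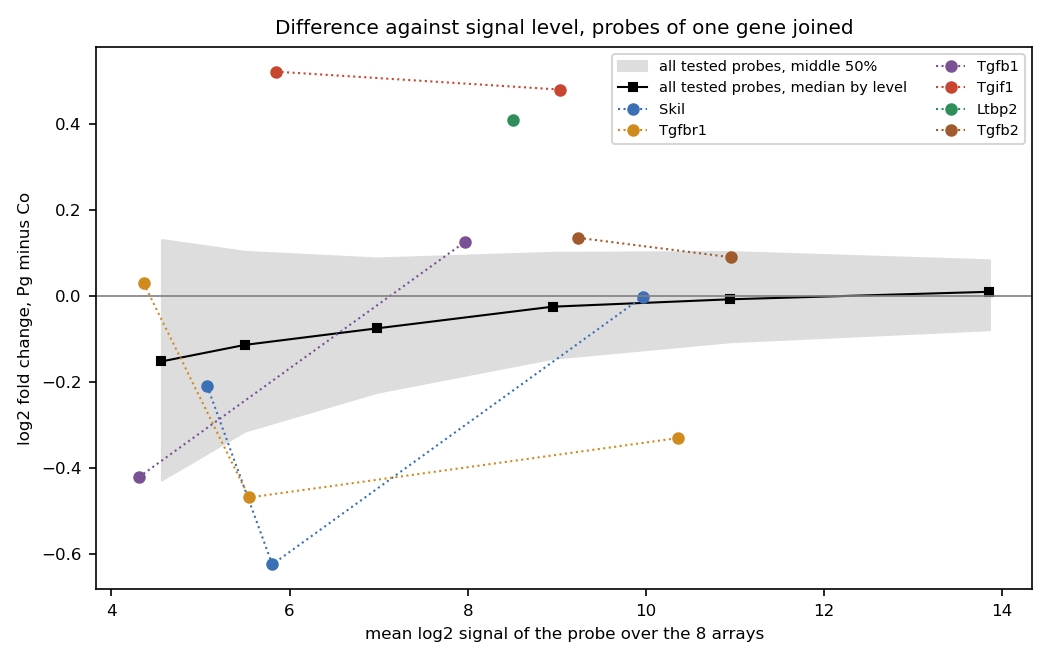
Difference in log2 signal, Pg minus Co (y axis), against the mean log2 signal of a probe over the 8 arrays (x axis). The black line joins the medians of all tested probes in 6 classes of signal, from -0.15 in the dimmest to 0.01 in the brightest, the grey band holds their middle 50%, and colored points are probes of *Ltbp2* and of the 5 member genes with several tested probes, those of a gene joined by a dotted line.

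The promoters of the members were read from RefSeq for mouse build GRCm38.p6, as 250 bases before to 50 after each annotated start. The table held 12 promoters of 7 member genes. The SMAD box CAGAC, searched on both strands, occurred in 7 of the 12, against 49.6% of 32851 promoters of the same length. The palindromic double box GTCTAGAC and the AP-1 motif TGANTCA, searched likewise, occurred in 0 of the 12, against 0.213% and 7.81%. A GTCTAGAC box shares the letters AGAC with CAGAC but holds no whole CAGAC. The *Ltbp2* promoter, printed because the gene had the member call with the lowest adjusted p, held the box 3 times, and capitals mark it as CAGAC or, on the other strand, GTCTG. It lies at chr12:84876442-84876741 on the minus strand.
Ltbp2 promoter: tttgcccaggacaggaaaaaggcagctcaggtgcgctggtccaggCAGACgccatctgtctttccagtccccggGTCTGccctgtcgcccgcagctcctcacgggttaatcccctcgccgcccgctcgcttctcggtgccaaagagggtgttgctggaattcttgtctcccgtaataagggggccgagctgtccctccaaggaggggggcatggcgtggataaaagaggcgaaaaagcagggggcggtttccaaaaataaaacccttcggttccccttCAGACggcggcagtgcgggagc

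Other genes of the pathway were taken from a list of 45 genes in 4 groups, of which 44 had a tested probe. Of their 105 tested probes 2 were called higher and 8 lower, 9.52% in all beside 7.82% of all probes, and 0 combined a call with a fold change above 1.5. On the brightest probe 28 genes were higher and 16 lower, with a median of 0.04 beside -0.01 over all genes tested. The number called fell to between 0 and 6 in 7 of the 8 fits without 1 array (5, 1, 0 and 3 without Co1 to Co4 and 5, 3 and 6 without Pg1, Pg2 and Pg4) and was 12 without Pg3. Calls over all probes fell from 2644 to 1015, 232, 3 and 563 without Co1 to Co4 and to 632, 682, 2378 and 800 without Pg1 to Pg4. Without Pg3 the calls of the list rose while those over all probes fell.

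In the latency and activation group, *Furin*, the protease that cuts the TGF-β precursor, was upregulated by 0.24 ± 0.06 on its brightest probe (limma adjusted p = 0.0695), while its other tested probe gave -0.03 ± 0.12. *Itgb6*, a subunit of an integrin that releases latent TGF-β, was downregulated on probe A_52_P93974 with a difference of -0.58 ± 0.16 (limma adjusted p = 0.0894), while its brightest probe read 10.12 in Co and 10.31 in Pg mice. *Fbn1*, the microfibril protein fibrillin-1, and *Lrrc32*, which holds latent TGF-β on cell surfaces, had the largest positive differences of this group on brightest probes, 0.59 ± 0.21 and 0.41 ± 0.18, neither of them called (limma adjusted p = 0.158 and 0.221). In the group of receptors and co-receptors *Zfyve9*, the anchor that presents SMADs to the receptor, was downregulated on probe A_55_P2070039 with a difference of -0.44 ± 0.10 (limma adjusted p = 0.0649), while its brightest probe gave -0.17 ± 0.08. This was the 1 call among 12 probes of the group, or 8.33% beside 7.82% of all probes.

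The SMAD group had 4 calls among 15 tested probes, or 26.7%, beside 7.82% of all probes. *Smad3*, the receptor-activated SMAD that binds DNA, fell from 9.74 ± 0.05 to 9.17 ± 0.12 (SD, n = 4 per group) on probe A_52_P352277, a difference of -0.57 ± 0.07 (limma adjusted p = 0.0398). *Smad4*, the common partner of all receptor-activated SMADs, was downregulated on 2 probes, A_55_P2745195 with -0.54 ± 0.09 and A_55_P2745667 with -0.46 ± 0.07 (limma adjusted p = 0.0429 and 0.0439). The brightest probes of the same genes gave other values, -0.20 ± 0.07 for *Smad3* and 0.13 ± 0.09 for *Smad4* (limma adjusted p = 0.164 and 0.429), and the remaining *Smad4* probe gave 0.01. On brightest probes 6 of the 7 genes of the group were higher, with a median of 0.13 beside -0.01 over all genes tested. *Map3k7*, the TAK1 kinase of the SMAD-independent branch, was upregulated by 0.23 ± 0.05 on its brightest probe (limma adjusted p = 0.07), while its other tested probes gave -0.27 and 0.02, neither of them called.

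Among 16 regulators, 3 of 52 tested probes, or 5.77%, were called, all lower, beside 6% of all probes called lower. *Rnf111*, a ubiquitin ligase that removes SKI and SKIL, had a difference of -0.35 ± 0.08, *Usp15*, a deubiquitinase of the receptor complex, -0.31 ± 0.06, and *Tgif2*, a relative of *Tgif1*, -0.37 ± 0.09 (limma adjusted p = 0.0668, 0.0521 and 0.0798). The brightest probes of *Rnf111* and *Usp15* gave 0.05 ± 0.07 and -0.12 ± 0.06, the other *Rnf111* probes gave 0.15 and -0.23, and the other *Usp15* probes lay between -0.57 and 0.06, none of them called. The *Usp15* probe at -0.57 was well above background on 4 Co arrays and 1 Pg array. It was thus tested almost only through the group in which it was brighter. The brightest *Tgif2* probe had the largest positive difference among the brightest probes of the pathway list, 0.63 ± 0.39, with an adjusted p of 0.378. The largest negative differences on brightest probes were those of *Usp4*, *Smad3* and *Ppm1a*, at -0.21, -0.20 and -0.20, none of them called. All 8 calls of lower signal in the list were on probes that were not the brightest of their gene, and both calls of higher signal were on the brightest. Over all genes with several tested probes, 80.8% of the probes called lower were not the brightest of their gene, against 43.9% of those called higher and 60.7% of all their tested probes.

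**Figure D4:**
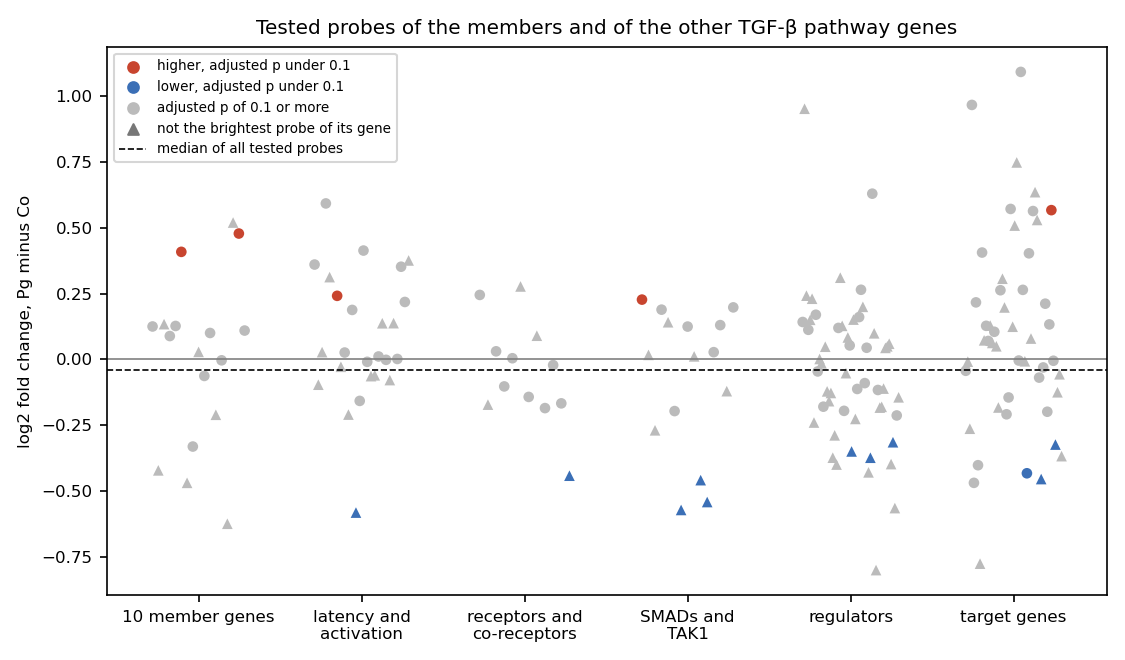
Difference in log2 signal, Pg minus Co (y axis), of each tested probe of the 10 member genes, of the 4 groups of other pathway genes and of the target genes; red and blue mark adjusted p below 0.1, triangles mark probes that are not the brightest of their gene, and the dashed line is the median of all tested probes, -0.04. The blue points of the 4 pathway groups are all triangles, and both of their red points are circles.

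Target genes are known to be induced by TGF-β in many cell types. Of 26 genes with 48 tested probes, 1 probe was called higher and 3 lower, 8.33% beside 7.82% of all probes. On the brightest probe 15 genes were higher and 11 lower, with a median of 0.12 beside -0.01 over all genes tested. *Timp1*, an inhibitor of matrix metalloproteases, was upregulated from 9.55 ± 0.28 to 10.12 ± 0.14 (SD, n = 4 per group), a difference of 0.57 ± 0.14 (limma adjusted p = 0.0807). *Klf10*, a TGF-β immediate-early transcription factor, was downregulated from 11.07 ± 0.23 to 10.64 ± 0.11, a difference of -0.43 ± 0.12 (limma adjusted p = 0.0992). *Tsc22d1* was called lower on probe A_55_P2160686 with -0.32 ± 0.06 (limma adjusted p = 0.0517), and its brightest probe gave 0.00 ± 0.08.

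The other target genes with large differences were not called. *Il11*, a fibrosis-related cytokine, had the largest positive difference, 1.09 ± 1.33, with a Pg range from 3.91 to 10.59 (limma adjusted p = 0.66), followed by *Adamts4*, an aggrecan-cutting protease, with 0.97 ± 0.28 and by *Fn1*, fibronectin, with 0.57 ± 0.21 (limma adjusted p = 0.102 and 0.168). *Angptl4*, an inhibitor of lipoprotein lipase, and *Cdkn1a*, the cell-cycle inhibitor p21, had the largest negative ones beside *Klf10*, -0.47 ± 0.17 and -0.40 ± 0.34 (limma adjusted p = 0.163 and 0.52). The number of target probes called was 2, 0, 0 and 0 without Co1 to Co4 and 1, 1, 4 and 1 without Pg1 to Pg4, in fits whose calls over all probes fell as given above for the pathway list.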

How the data were processed

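The labels of each array gave the tissue, strain, age and injection. The authors extracted the arrays with Agilent Feature Extraction 11.0.1.1, and the deposited intensity of each spot was background-subtracted and detrended but not normalized between arrays. The authors also deposited a table of quantile-normalized log2 values, refitted here as an alternative, and fold changes and p-values of their own comparison, which were not used. Outlier spots were dropped, spots of a probe averaged over 59305 non-control spots, and the processed intensity was quantile-normalized, floored at 1 and log2-transformed. Probes that the software marked well above background on 4 or more of the 8 arrays were fitted with limma 3.58.1 (lmFit and eBayes, R 4.3.3, two-sided, Benjamini-Hochberg). The study's methods name quantile normalization, log2, limma and Benjamini-Hochberg, while the floor, the filter and the call without a fold limit were set here. Quantile normalization forces equal distributions and would hide a shift shared by most probes. Named genes were all member probes, list genes with an adjusted p below 0.1, the 3 largest differences of each list in each direction on brightest probes, called markers and markers at background. For likeness, the 3 tested probes of other genes with the highest Pearson correlation to *Tgfb1* were taken.

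The members and lists were chosen with earlier results of these data known. A called gene of the target list is not reported here. The fit was tested on simulated data. The labels do not say whether replicate numbers pair the samples, and the main fit used no pairing. The correlations of deviations for numbers 1 to 4 were 0.06, -0.03, -0.07 and 0.18. So few values cannot settle whether the samples were paired. The labels do not name litters or extraction batches, and the number of arrays limits the precision. Microarray intensity has no read depth.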

Additional observations from a re-analysis of the deposited data

Results flagged for a closer look

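For *Tgfbr1* probe A_55_P1960901 the Pg3 array read 5.62 on the log2 scale, whereas the other Pg arrays read 3.85 to 4.04. Its gap to the nearest array took up more of the group's range than Dixon's test allows at the 95% level. This was 1 of 34 groups examined, and chance marks about 1 in 20.

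For *Tgif1* probe A_55_P2717877, which entered no test because it was well above background on 1 array, Pg3 read 5.05 while the Co arrays read 2.65 to 3.83.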

How the results depend on the processing

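The median difference of the member genes stayed between 0.07 and 0.14 under all alternatives, whereas calls near the threshold did not hold. These alternatives refit the same arrays, and the SD of that median within groups, array by array, was 0.10. The number of member probes called, 2, became 4 with normexp on the mean signal, with the median signal without subtraction and among probes above background on all 8 arrays. It became 1 with 75th percentile scaling and without a filter, and 0 without normalization. With the filter on all 8 arrays, 1 member probe (*Skil* A_55_P2934297) was called with a fold change above 1.5. Leaving out 1 array gave 0 to 2 member calls, 0 to 12 for the pathway list, 0 to 4 for the targets and 0 to 5 for the marker lists. Member calls were 0 without Co2, Co3, Pg1 or Pg2, where calls over all probes fell from 2644 to 232, 3, 632 and 682. The 10 pathway calls became 17 with normexp on the mean signal, 6 with the 75th percentile, 6 without a filter, 4 on the authors' values and 1 without normalization. The 4 target calls became 7 with the median signal, 2 without a filter and 0 without normalization, and the 3 marker calls became 0 without normalization.

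With the replicate number as a block, which the labels do not support as a pairing, member, pathway, target and marker calls were each 0, and over all probes 0 were called against 2644. Only numbers 1 and 4 correlated best with their own number across groups.

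Signs turned for 4 member probes. *Skil* A_55_P2904840 became 0.0227 without normalization and ranged from -0.0685 to 0.0275 with 1 array left out, turning positive without Co2, Co3, Pg1, Pg2 or Pg3. *Tgfbr1* A_55_P1960901 became -0.113 with normexp on the median signal, -0.0736 with the median signal and -0.116 on the authors' values, and ranged from -0.385 to 0.203 with 1 array left out, negative without Co3 or Pg3. *Tgfbr2* ranged from -0.143 to 0.0487, positive without Co3 or Pg3, and *Tgif1* A_52_P257590 from -0.0844, without Pg2, to 0.91. The cause was not tested. Over all probes 3449 were called with normexp on the mean signal, 29 without normalization and 3 without Co3. Probes near background, such as *Tgfb1* A_66_P135688, are limited by their signal.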

Other observations

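After each group mean was taken off, the probes of other genes whose values over the 8 arrays were most like those of the brighter *Tgfb1* probe were those of *Nbl1* (Pearson r = 0.979), the transcript NAP111752-1 (0.978) and *Podn* (0.974). These are the highest of all tested probes, they share the same arrays and normalization, and the values are given as a description.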
